A study of Mus musculus with 4 samples.

Results

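The immunoglobulin loci are the chromosomal regions from which B cells assemble antibody genes. They were taken as the 153 genes of 37310 in the mm9 GENCODE annotation (release vM1) whose symbols begin with the names of the heavy chain (Igh, chromosome 12), kappa light chain (Igk, chromosome 6) and lambda light chain (Igl, chromosome 16) segments, with 100 kb on each side. The deposited RAD21 sites in these stretches numbered 28 of 15311 in embryonic stem cells (ESCs) and 8 of 11022 in embryoid bodies (EBs). RAD21, a subunit of cohesin, was mapped by chromatin immunoprecipitation and sequencing in R1/E mouse ESCs at day 0 and in EBs grown from them, cell aggregates in which the ESCs differentiate, at day 12. Both cell types carried a RAD21-GFP transgene on a bacterial artificial chromosome in addition to the cells' own gene, so the map shows the tagged protein in a drug-resistant line sorted for GFP. The RAD21 libraries were precipitated with goat anti-eGFP and the control libraries, called IgG here, with a goat IgG isotype antibody, although the labels also describe the latter as input DNA. Each of the 4 groups was a single library without replicates. All intervals given are at the 95% level, exact, and cover counting error only, so that a difference is one between libraries. Autosomal reads numbered 13714772 and 12602155 for RAD21 and IgG of ESCs, and 7740389 and 6929293 for those of EBs.

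Antibody genes are built by V(D)J recombination, in which the RAG proteins cut beside V, D and J segments at recombination signals that begin with a conserved heptamer. The long V arrays have to be brought close to the D or J segments, and loops held by cohesin and stopped at the DNA-binding protein CTCF are known to take part in B cell precursors. A CTCF motif has a direction, taken here along the strand of the match from 5′ to 3′, and the loops known so far run mostly between motifs that point towards each other. Neither ESCs nor EBs of this age are B cells. Whether any locus was rearranged, and whether its genes were transcribed, was not measured in these files.

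The Igh locus (chr12:114523536-117238672, minus strand) held 41 of the 153 genes, Igk (chr6:67505630-70676751) 106, and Igl (chr16:19065327-19260937) 5. Igll1, which encodes a part of the surrogate light chain of early B cells, lay apart from Igl on the same chromosome and was treated as a stretch of its own. The annotation named 103 further Igh segments only by other symbols, among them 76 V, 21 D and 4 J segments. These were used as landmarks, and for the V genes also in counts, so that 113 Igh, 102 Igk and 3 Igl V genes were examined. Along chromosome 12 the order was constant genes, J segments, D segments and V genes, and along chromosome 6 it was V genes, J segments and the constant gene Igkc. Sites are numbered below along each chromosome.

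The sequences that carried most of the sites outside the V arrays are given first, since each had a match to the CTCF motif and the direction of the motif differed with the place in the locus. Each line gives 60 bases of mm9, read along the motif, with the 20 bases of the match in capitals. Igh 1 and Igh 2 lay beyond the constant genes, Igh 3 and Igh 4 between the main block of D segments and Adam6b, Igk 14 between the last V gene and Igkj1, and Igk 15 and Igk 16 beyond Igkc.
Igh 1 (chr12:114458873-114458932, plus strand): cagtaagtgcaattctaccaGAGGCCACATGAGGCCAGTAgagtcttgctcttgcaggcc
Igh 2 (chr12:114460403-114460462, plus strand): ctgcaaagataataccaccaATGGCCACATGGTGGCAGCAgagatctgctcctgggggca
Igh 3 (chr12:114723457-114723516, minus strand): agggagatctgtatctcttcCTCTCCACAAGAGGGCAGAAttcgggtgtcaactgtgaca
Igh 4 (chr12:114726075-114726134, plus strand): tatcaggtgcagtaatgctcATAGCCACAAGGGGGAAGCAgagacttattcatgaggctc
Igk 14 (chr6:70659440-70659499, minus strand): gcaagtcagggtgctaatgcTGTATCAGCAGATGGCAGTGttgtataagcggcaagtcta
Igk 15 (chr6:70754741-70754800, plus strand): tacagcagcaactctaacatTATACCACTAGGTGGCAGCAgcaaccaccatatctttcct
Igk 16 (chr6:70762013-70762072, plus strand): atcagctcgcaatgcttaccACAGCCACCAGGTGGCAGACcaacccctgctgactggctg

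The motif was a matrix of width 20 with the consensus GTGGCCACTAGAGGGCACTA, learned at the sites of odd-numbered chromosomes only and hence not at the sites described here. Matches were taken at a stricter threshold, passed by 1e-05 of genome positions, and at a looser one, passed by 1e-04. At the looser threshold 24 of 28 ESC sites had a match within 150 bp of the summit (85.7%, 67.3 to 96.0), close to the share over all autosomal ESC sites (85.6%). At the stricter one it was 6 of 28 (21.4%, 8.30 to 41.0), against 37.2% over all autosomal ESC sites, which the interval includes. Of tiled windows of the same length, 2.92% held a match at the looser and 0.304% at the stricter threshold. With the motif read as the consensus is printed, the summit lay on its 3′ side at 22 of the 26 sites of either list with a match (84.6%, 65.1 to 95.6), with a median of 46.5 bp between them, and at 79.2% of all autosomal sites with a median of 46.0 bp. In their motifs and in the side on which RAD21 lay, the sites of the immunoglobulin loci were thus not apart from all autosomal sites beyond counting error.

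RAD21 sites inside the loci were thinly spread. The 4 loci without flanks held 19 ESC sites, which is 3.12 per Mb (1.88 to 4.88), and 5 EB sites, or 0.822 per Mb (0.267 to 1.92). The autosomes held 6.30 and 4.50 per Mb. T cell receptor loci, the other set of loci that undergo V(D)J recombination, had 3.03 (1.31 to 5.98) and 1.90 (0.616 to 4.43) per Mb, and 30 clusters of olfactory receptor genes, a family of similar array structure, had 3.25 (2.67 to 3.92) and 2.59 (2.08 to 3.20). In ESCs the 3 kinds of array had overlapping intervals. In EBs the immunoglobulin loci were below the olfactory receptor clusters, and their interval overlapped that of the T cell receptor loci. Read density was also lower than on the autosomes, at 0.781 times the autosomal mean in ESC IgG and 0.783 times in EB IgG, and 14.6% of 1 kb bins of Igh, 6.34% of Igk and 7.22% of Igl had no read in any library, against 4.62% on the autosomes. The part of this lower coverage in the site density was not tested.

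**Figure D1:**
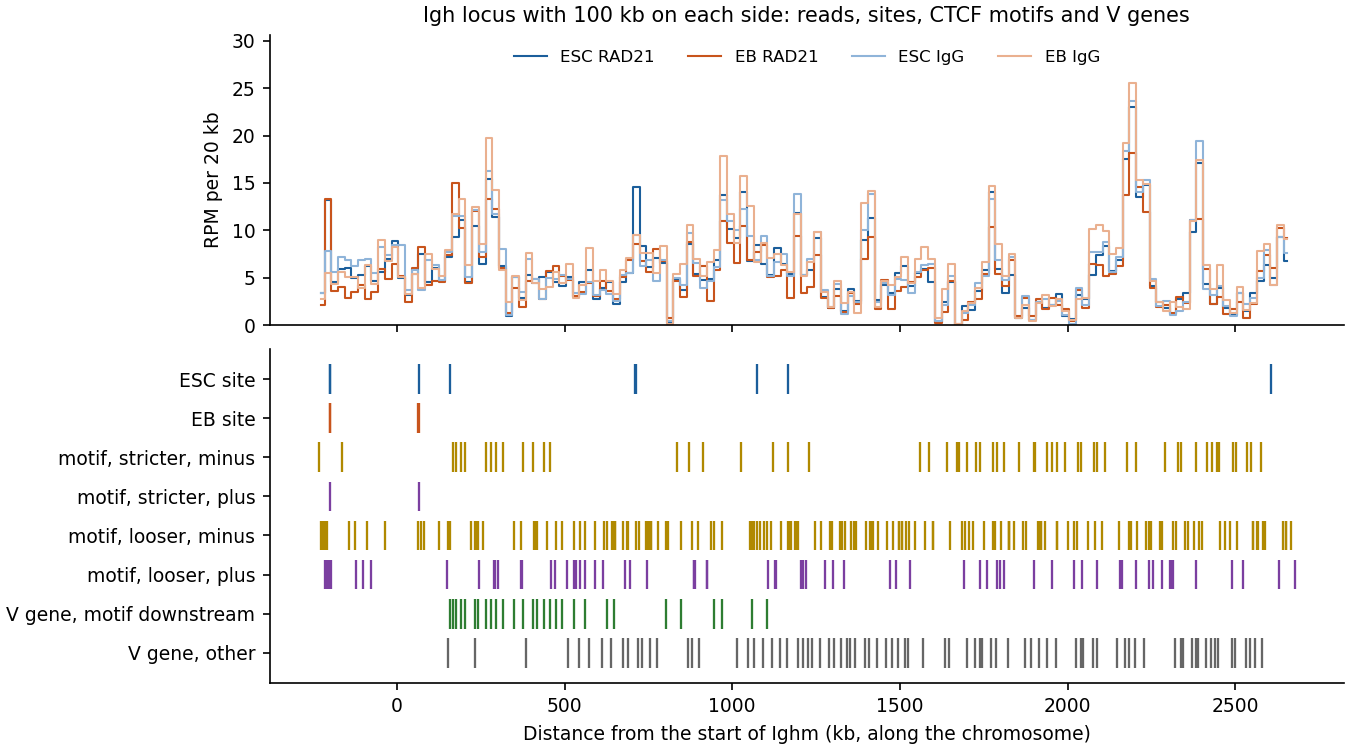
The Igh locus by distance from the start of Ighm in kb along chromosome 12. The upper panel gives RPM, the reads scaled to the autosomal reads of each library, per 20 kb in the 4 libraries, and the lower panel the summits listed in each cell type, CTCF motif matches by strand at the stricter and looser thresholds, and V genes with and without a motif within 200 bp downstream. EB sites are seen only at the constant gene end and next to the D segments, and strict matches in the V array stand on the minus strand alone.

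Across the 31 sites of either list, 5 were listed in both cell types, 23 only in ESCs and 3 only in EBs. The share of ESC sites that overlapped an EB site was 17.9% (5 of 28, 6.06 to 36.9), while 48.6% of all autosomal ESC sites did so. Of the EB sites 62.5% (5 of 8, 24.5 to 91.5) overlapped an ESC site, against 68.3%, a value within the interval. Reads within 250 bp of the summit, scaled to autosomal reads after adding 1 read, gave a median log2 EB to ESC ratio of -0.50 (-1.12 to -0.04) over the 31 sites, and of 0.03 over all 18504 autosomal sites of either list. Over the 28 sites of the ESC list it was -0.73 (-1.26 to -0.23), an interval that includes the -0.27 of all autosomal ESC sites. At least 2-fold fewer reads in EBs were found at 11 sites (35.5%, 19.2 to 54.6), against 23.4% of all autosomal sites, and at least 2-fold more at 2 sites (6.45%, 0.791 to 21.4), against 19.4%. Both intervals include the autosomal share. Thus neither these counts nor the median over like sites set the loci apart. The lower shared share did so for the ESC list as a whole, and by locus only for Igk. There it was 14.3% (2 of 14, 1.78 to 42.8), and in Igh 33.3% (3 of 9, 7.5 to 70.1), an interval that includes 48.6%. Chromosome 6, which holds Igk, had 1.19 times the scaled reads in ESCs as in EBs, in RAD21 and in IgG. The part of this difference in the shared share was not tested. The IgG libraries gave a median log2 ratio of 0.28 at the same sites and over all autosomal sites. The added read raises this ratio where reads are few, as the EB library held fewer. Summed without it, the IgG ratio was 1.13 (0.814 to 1.56) at the 31 sites and 1.03 over all autosomal ESC sites. The sites were also weaker than most: the median peak score in ESCs, which is -10 times the log10 of the caller's p-value, was 74.0 against 94.5 over all autosomal ESC sites. Among ESC sites with a score under 100, 2 of 21 were shared (9.52%), against 32.9% of such autosomal sites, and among those of at least 100 it was 3 of 7 (42.9%, 9.90 to 81.6), with 66.9% over the autosomes within the interval. Because a site was listed where its reads were high, its EB to ESC ratio follows in part from its listing: over the autosomes the median log2 ratio was -1.11 at ESC-only sites, 0.38 at shared sites and 1.49 at EB-only sites, and the summed ratio of ESC-only sites was 0.436. The ratios of single sites given here are therefore descriptions, and their intervals leave out this choice. The lower number of reads in the EB libraries bears on which sites were listed there, and its part in the shared share was not tested.

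**Figure D2:**
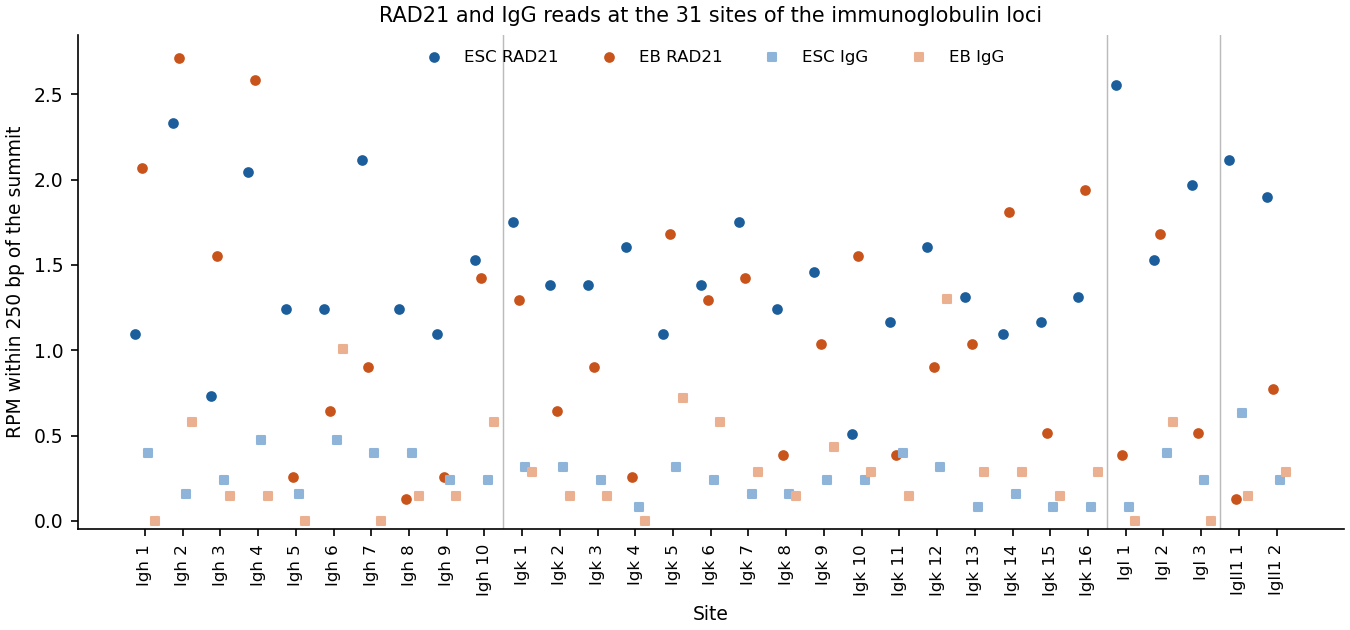
RPM within 250 bp of the summit at the 31 sites in the order of their numbers, with circles for the RAD21 and squares for the IgG libraries, 1 library each. Vertical lines part Igh, Igk, Igl and Igll1. The RAD21 values of EBs exceed those of ESCs at Igh 1 to Igh 4 and are 0.258 RPM or less at Igh 5, Igh 8 and Igh 9.

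When the sites were grouped by their place, a grouping made after the values were seen, those listed in EBs lay mostly towards the D, J and constant segments. Of the 7 sites in these parts of Igh and Igk, 6 were listed in EBs, 4 of them in both cell types, and 6 had more scaled RAD21 reads in EBs than in ESCs (median log2 ratio 0.58, from -0.94 to 1.07). Of the 17 sites within the V arrays, 2 were listed in EBs, and 15 had fewer scaled reads in EBs (median log2 ratio -0.76, from -2.35 to 1.53). Of all 18504 autosomal sites of either list, 7328 were listed in both cell types, 3419 only in EBs and 7757 only in ESCs. The log2 ratio was above 0 at 39.8% of autosomal ESC sites and at 30.4% of those of chromosome 6. Summed over sites, the 7 held 134 ESC and 102 EB reads, a scaled ratio of 1.35, and the 17 held 313 and 106, a ratio of 0.600. The IgG reads of the same sites gave ratios of 1.00 and 1.30. By locus, the RAD21 ratios were 1.44 (1.03 to 2.00) and 0.317 (0.177 to 0.535) in Igh. In Igk they were 1.19 (0.743 to 1.89) and 0.723 (0.559 to 0.930), with intervals that overlap, so the pattern was clear in Igh only. Since 15 of the 17 sites in the V arrays were listed in ESCs only, and 4 of the 7 others in both cell types, these ratios restate the listing and are no separate support for a difference between the places.

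**Figure D3:**
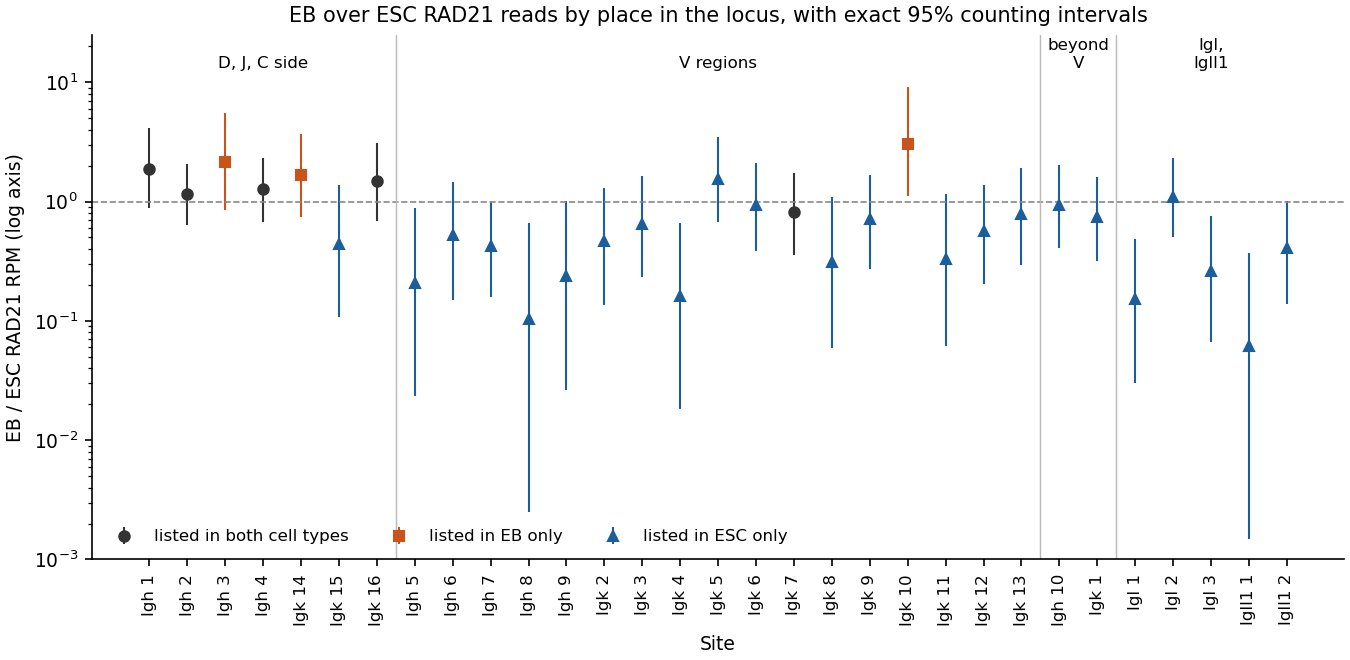
Ratio of EB to ESC RAD21 RPM at each of the 31 sites on a log axis, grouped by place in the locus, with the exact 95% counting interval as bars. Circles, triangles and squares mark sites listed in both cell types, in ESCs only and in EBs only. Of the 7 sites on the D, J and constant side, 6 lie above 1, and 15 of the 17 sites of the V arrays lie below it.

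At the constant gene end of Igh, where a group of enhancers followed by CTCF sites is known to close the locus, a pair of sites 1597 bp apart was listed in both cell types. Igh 2 (chr12:114460050-114461485) had 32 reads in ESC RAD21, 21 in EB RAD21, 2 in ESC IgG and 4 in EB IgG. Igh 1 (chr12:114458507-114459179) had 15, 16, 5 and 0 reads in the same order. Both RAD21 libraries thus stood above their IgG libraries at both sites, and the EB to ESC ratios, 1.16 (0.637 to 2.08) and 1.89 (0.875 to 4.10), had intervals that include 1. The nearest annotated genes were a U6 snRNA gene 8.07 kb and Gm900 48.9 kb from Igh 2. The 3 motif matches of the pair were all on the plus strand and so pointed towards the V genes.

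Between the D segments and the V array, the region in which an intergenic control region with a pair of CTCF sites is known to keep V genes from joining too early, a further pair was found. Igh 4 (chr12:114725660-114726559), listed in both, had 28 reads in ESC RAD21, 20 in EB RAD21, 6 in ESC IgG and 1 in EB IgG. Igh 3 (chr12:114723439-114724077), 2559 bp away and listed only in EBs, had 10, 12, 3 and 1. The EB to ESC ratios were 1.27 (0.676 to 2.33) and 2.13 (0.842 to 5.49), and neither was apart from 1 beyond counting error, so that the listing of Igh 3 in EBs alone was not matched by a clear difference in reads. The motif of Igh 3 was on the minus strand and that of Igh 4 on the plus strand. They pointed away from each other, the first towards the D segments and the second towards the V genes. The annotation placed 18 D segments on the low side of the pair, the nearest, Gm16947, 5.76 kb from Igh 4, and 3 more on the other side, the nearest 37.4 kb away. Adam6b, a gene of the ADAM family needed for sperm function, was the closest gene on that side.

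The V array of Igh held 5 ESC sites and no EB site over 2.43 Mb, where the exact upper limit for a count of 0 is 1.52 per Mb. Igh 7 (chr12:115372501-115373978), between Ighv9-2 and Ighv9-3, was the strongest, with 29 reads in ESC RAD21, 7 in EB RAD21, 5 in ESC IgG and 0 in EB IgG. Igh 5 (chr12:114816232-114817068), 89 bp from the V gene Gm16969, had 17, 2, 2 and 0. Igh 8 (chr12:115733725-115734590), between Gm16694 and Ighv1-5, had 17, 1, 5 and 1. EB to ESC ratios were 0.428 (0.158 to 0.998), 0.209 (0.0234 to 0.878) and 0.104 (0.00249 to 0.665), and all 3 intervals include the 0.436 of autosomal ESC-only sites. Igh 9, between Ighv1-9 and Ighv1-12, had 15, 2, 3 and 1 reads, and Igh 6, the only site of the array without a motif match, had 17, 5, 6 and 7, so that its EB RAD21 reads did not exceed those of EB IgG. Summed over the 5 sites, the EB to ESC ratio was 0.317 (0.177 to 0.535) for RAD21 and 0.779 (0.314 to 1.78) for IgG, and the RAD21 interval includes the autosomal value as well. All 4 motif matches here were on the minus strand and pointed towards the D segments, opposite to those at the constant gene end.

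Matches to the CTCF motif in the Igh V array shared this direction whether or not a site was listed there. At the stricter threshold the array held 57 matches, or 23.5 per Mb against 10.1 over the autosomes, and 57 of 57 were on the minus strand, while the autosomes had 12123 plus and 11954 minus matches. At the looser threshold there were 195 minus and 59 plus matches, and their density was near that of the autosomes (105 against 100 per Mb). V genes of the array were on the minus strand as well, 111 of 113 of them. That 77.2% of the looser matches had the direction of the nearest V gene therefore restates their strand count. The Igk V array was different, with 3 strict matches (0.953 per Mb) and, at the looser threshold, 118 minus and 105 plus matches, beside 63 minus and 39 plus V genes. Only 1 of the 57 strict matches of Igh lay within 150 bp of a listed summit (1.75%, 0.0444 to 9.39), against 26.2% of all autosomal strict matches. Over all loci with flanks it was 6 of 72 (8.33%, 3.12 to 17.3). In the Igh V array 16.2% of 1 kb bins had no read in any library, against 4.62% on the autosomes. The part of this lower coverage in the share of matches with a site was not tested.

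The motif stood at a fixed place behind many Igh V genes, next to the recombination signal. Of 113 Igh V genes, 29 had a looser match within 200 bp downstream of the coding end, in each case in the direction of the gene and 59 to 82 bp from the coding end (median 67 bp). In tiled windows of 200 bp the share was 1.98%, and none of the 102 Igk V genes had such a match. These V genes were gathered at the D-proximal end: 28 of the 48 V genes before the first Ighv1 gene had the motif, and 1 of the 65 V genes from there on. Of the 29, only Ighv2-4, Ighv11-2, Ighv12-3 and Ighv10-3 carry Ighv symbols, and the rest are annotated under other names. The lines below show, on the minus strand of mm9, the last 12 bases of the annotated V gene and the sequence up to 6 bases after the match, with the heptamer and the 20 bases of the CTCF motif in capitals, for Gm16969 at Igh 5, for a further V gene with many reads, Gm16594, and for 2 of the genes with Ighv symbols.
Gm16969 (chr12:114816635-114816726, minus strand): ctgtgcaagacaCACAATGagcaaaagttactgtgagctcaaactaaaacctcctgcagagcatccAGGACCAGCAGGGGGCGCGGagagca
Gm16594 (chr12:114954799-114954897, minus strand): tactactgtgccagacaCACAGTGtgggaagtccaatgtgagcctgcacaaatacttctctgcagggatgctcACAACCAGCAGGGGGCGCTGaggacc
Ighv2-4 (chr12:114891420-114891513, minus strand): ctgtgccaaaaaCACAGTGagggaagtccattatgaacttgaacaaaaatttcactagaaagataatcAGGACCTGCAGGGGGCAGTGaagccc
Ighv10-3 (chr12:115761571-115761663, minus strand): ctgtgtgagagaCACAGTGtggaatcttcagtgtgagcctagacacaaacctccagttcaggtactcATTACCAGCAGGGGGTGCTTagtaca

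The heptamer, searched as CACANTG on the strand of the gene within 17 bases of the coding end, was found at 88 of 113 Igh and 90 of 102 Igk V genes, and in 0.467% of tiled windows of that length. It was found at 28 of the 29 V genes with the motif, with 41 to 64 bases between heptamer and motif. The gap was 49 bases at 14 genes and 47 at 8. The 29 matches comprised 23 different 20-base sequences. Beyond the first Ighv1 gene, all 41 strict matches lay further from the V genes, 1194 to 32192 bp from the nearest coding end (median 3902 bp), 34 of them on its upstream side.

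RAD21 reads gathered at these V genes in ESCs although all but Gm16969 lacked a listed site. Within 250 bp of the coding end the 29 genes had 0 to 19 ESC RAD21 reads (median 6) and 0 to 7 ESC IgG reads (median 3), and in EBs 0 to 11 RAD21 (median 2) and 0 to 4 IgG reads (median 1). Gm16969 was the highest with 19 ESC RAD21 and 2 ESC IgG reads, followed by Gm16594 and Gm16700 with 12 each. The 4 genes with Ighv symbols were lower, with 1 to 7 ESC RAD21 reads and 0 to 5 ESC IgG reads. Without Gm16969, the summed ratio of RAD21 to IgG was 1.75 (1.33 to 2.32) in ESCs and 1.4 (0.930 to 2.12) in EBs. At the 84 Igh V genes without the motif it was 1.01 (0.826 to 1.24) in ESCs and 0.671 (0.488 to 0.921) in EBs, and at the 102 Igk V genes 0.841 (0.704 to 1.00) and 0.983 (0.755 to 1.28). The intervals of Igh V genes with and without the motif did not overlap in either cell type, whereas that of the Igk V genes overlapped the genes with the motif in EBs, though not in ESCs. Of the 29 genes with the motif, 28 lay before the first Ighv1 gene, and the genes without it were not divided by place. Motif and place in the array therefore cannot be told apart in this comparison. Among genes without the motif, Ighv1-67 had the most reads in both ESC libraries, 21 of RAD21 and 16 of IgG. The reads at single genes were few, and V genes of one family are similar in sequence, so that the share of each gene in these sums is uncertain.

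**Figure D4:**
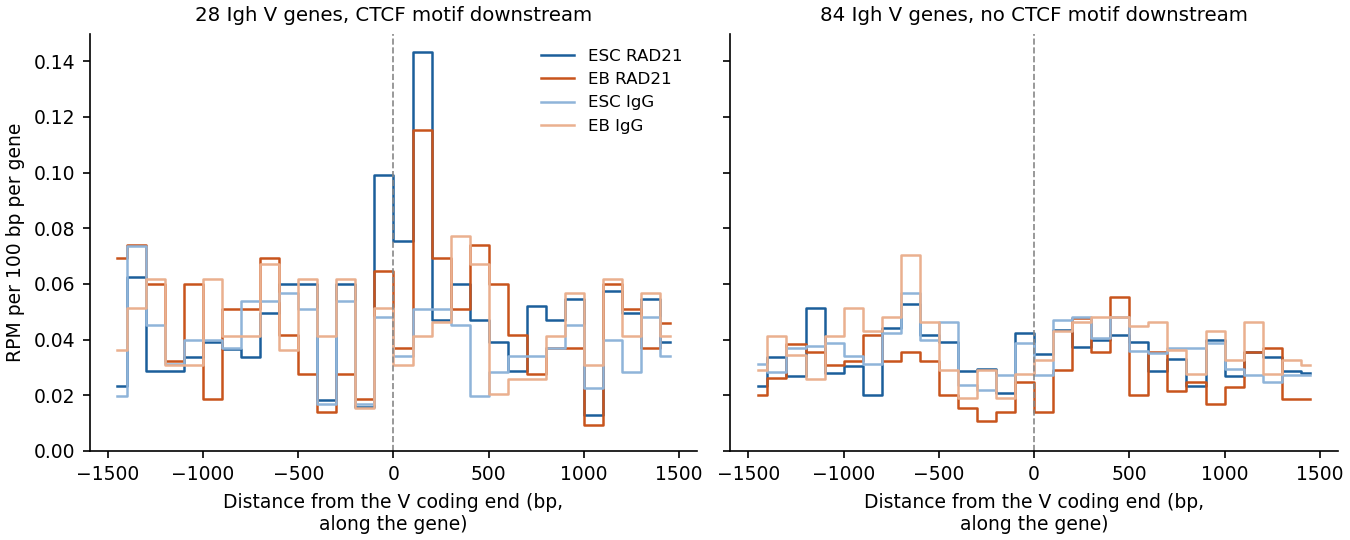
RPM per 100 bp and gene around the coding end of Igh V genes, read along the gene, for the 28 genes with a CTCF motif downstream and no listed site (left) and the 84 genes without the motif (right). The lines are the 4 libraries, 1 each, without an error. RAD21 of both cell types is highest 100 to 200 bp downstream of the coding end on the left, at 0.143 RPM in ESCs and 0.115 in EBs.

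The same was seen at strict matches of the Igh V array that lay over 2 kb from any listed summit. The 56 matches had 233 ESC RAD21, 96 ESC IgG, 89 EB RAD21 and 76 EB IgG reads. The ratio of RAD21 to IgG was 2.23 (1.75 to 2.86) in ESCs, close to the 2.33 of unlisted strict matches over the autosomes, and 1.05 (0.763 to 1.44) in EBs, below the autosomal 1.77. From ESCs to EBs, RAD21 changed by 0.677 (0.524 to 0.868), an interval that includes the 0.644 of unlisted strict matches over the autosomes. IgG changed by 1.44 (1.05 to 1.97), above the autosomal 0.848. The fall of RAD21 was thus not particular to the array, while the control rose there. The part of the control in the lower EB ratio was not tested. Before the first Ighv1 gene the RAD21 to IgG ratio in EBs was 1.67 (1.05 to 2.70) over 16 matches, and from there on it was 0.642 (0.398 to 1.03) over 40. These intervals just fail to overlap. At the looser threshold, minus strand matches had a ratio of 1.60 (1.4 to 1.83) in ESCs and plus strand matches one of 1.18 (0.831 to 1.69). These intervals overlap, and unlisted looser matches over the autosomes had 1.32. All strict matches of the array are among the minus strand ones, so that strand and strength of the motif cannot be told apart here.

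In Igk, the interval between the last V gene and the first J segment, which is known to hold a CTCF-bound element that governs the choice of V genes, contained a site listed only in EBs. Igk 14 (chr6:70659064-70660079), 5.29 kb from Igkv3-1 and 13.1 kb from Igkj1, had 15 reads in ESC RAD21, 14 in EB RAD21, 2 in ESC IgG and 2 in EB IgG. Its EB to ESC ratio was 1.65 (0.740 to 3.68), and reads of ESC RAD21 were above IgG although no ESC site was listed. Both motif matches in its interval were on the minus strand and pointed back into the V array. Beyond Igkc, Igk 16 (chr6:70761628-70762340), listed in both, had 18, 15, 1 and 2 reads, and Igk 15 (chr6:70754548-70755070), listed in ESCs, had 16, 4, 1 and 1. They lay 7158 bp apart between Rpia, an enzyme of the pentose phosphate pathway, and Eif2ak3, a kinase of the unfolded protein response. The best match at each was on the plus strand, which points away from the locus, and at Igk 16 a weaker minus strand match overlapped it.

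**Figure D5:**
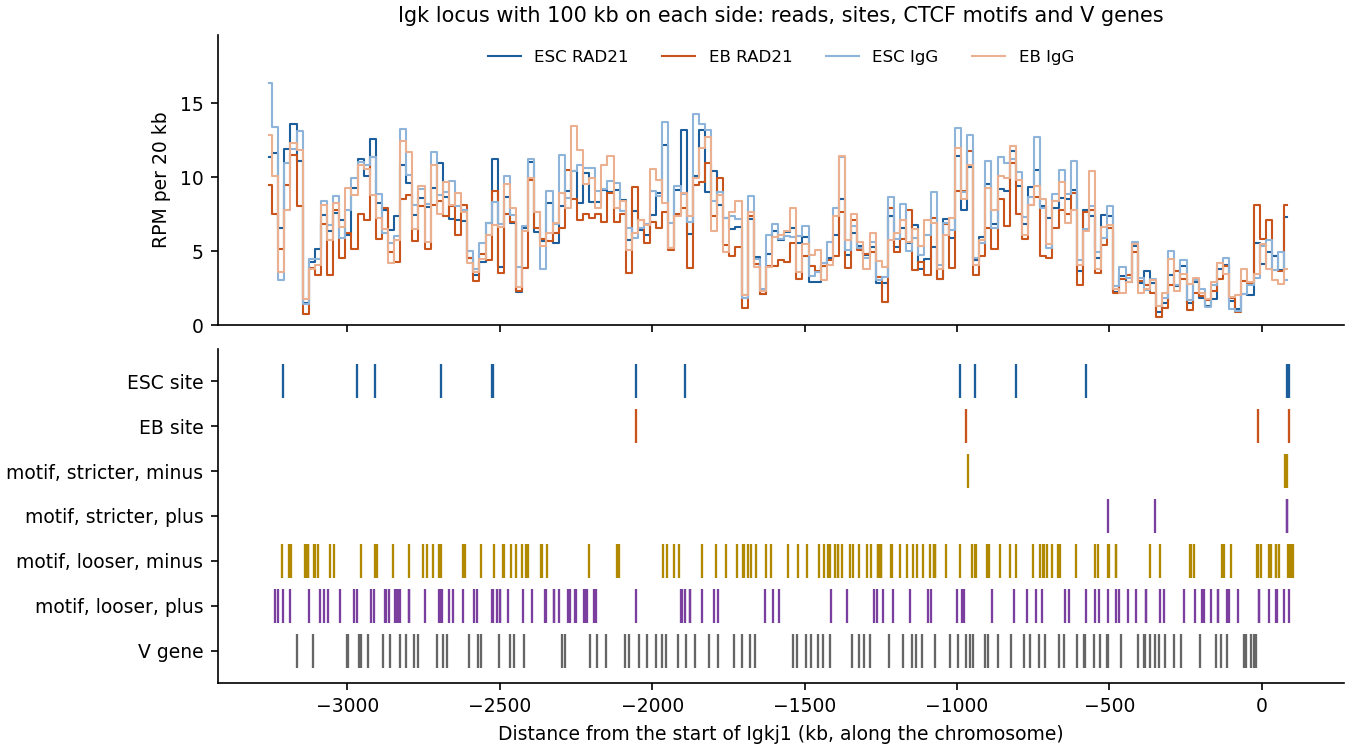
The Igk locus by distance from the start of Igkj1 in kb along chromosome 6, with RPM per 20 kb in the 4 libraries above and summits, CTCF motif matches by strand and V genes below. Looser matches occur on both strands along the whole V array, and 3 strict matches fall within it.

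The Igk V array held 11 ESC and 2 EB sites over 3.15 Mb, or 3.49 (1.74 to 6.25) and 0.635 (0.0769 to 2.30) per Mb. Igk 7 (chr6:68618369-68619059), between Igkv10-96 and Igkv10-95, was the only one in both lists, with 24 reads in ESC RAD21, 11 in EB RAD21, 2 in ESC IgG and 2 in EB IgG. Igk 4 (chr6:67980529-67981399), 5.92 kb from Igkv17-121, had 22, 2, 1 and 0, which is 6.21-fold fewer in EBs (1.53 to 54.5). Igk 10 (chr6:69703285-69703732), 2.17 kb from Igkv12-47 and listed only in EBs, went the other way with 7, 12, 3 and 2 reads, an EB to ESC ratio of 3.04 (1.103 to 9.11), and had no motif match. Of the rest, Igk 5 had 15 ESC and 13 EB RAD21 reads, and the other sites had 16 to 22 ESC and 3 to 10 EB RAD21 reads. Their single intervals include 1, and at Igk 12 the 7 EB RAD21 reads did not exceed the 9 of EB IgG. Summed over the 12 sites, the EB to ESC ratio was 0.723 (0.559 to 0.930) for RAD21 and 1.61 (0.961 to 2.69) for IgG. Chromosome 6 as a whole had 1.19 times the scaled reads in ESCs as in EBs, in RAD21 and in IgG alike. Its ESC sites had a median log2 EB to ESC ratio of -0.50 against -0.27 over all autosomal ESC sites, and the 12 sites of the array one of -0.45. Summed over the ESC sites of the chromosome, the ratio was 0.783 for RAD21, within the interval of the array, and 0.855 for IgG, below it. The 12 sites include Igk 10, listed only in EBs, while those of the chromosome are ESC sites alone, so the sets are not quite alike. With this limit, the array was not apart from its chromosome in RAD21, but its IgG ratio was higher.

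Motifs of the Igk V sites came in similar copies. Those of Igk 4 and Igk 7, on opposite strands, differed by 1 base, A4G counted from the 5′ end of the motif, and those of Igk 9, Igk 11 and Igk 12 differed from each other by 2 bases in every pair. The 3 sites of highest ESC score in the array are given with 20 bases on each side and the motif in capitals.
Igk 7 (chr6:68618566-68618625, plus strand): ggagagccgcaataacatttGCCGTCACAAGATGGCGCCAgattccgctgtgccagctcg
Igk 6 (chr6:68151601-68151660, plus strand): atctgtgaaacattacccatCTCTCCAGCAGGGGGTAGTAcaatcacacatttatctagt
Igk 4 (chr6:67980924-67980983, minus strand): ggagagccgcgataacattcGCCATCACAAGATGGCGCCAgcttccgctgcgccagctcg

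None of the Igl and Igll1 sites was listed in EBs. The exact upper limits of this share were 70.8% for Igl and 84.2% for Igll1. Both lie above the 48.6% of all autosomal ESC sites that overlapped an EB site. Igl 1 (chr16:19002568-19003919), before the first Igl gene and between Hira and Gm10088, was the strongest of all 28 ESC sites with a score of 265. It had 35 reads in ESC RAD21, 3 in EB RAD21, 1 in ESC IgG and 0 in EB IgG, 6.58-fold fewer in EBs (2.08 to 33.5). Igl 3 (chr16:19146014-19147452), inside the locus between Iglv1 and Iglc2, had 27, 4, 3 and 0, 3.81-fold fewer (1.33 to 15.0). Igl 2 (chr16:19087774-19088788), 2.71 kb from Iglv1, had 21, 13, 5 and 4 reads and an EB to ESC ratio of 1.097 (0.505 to 2.30), which includes 1. Igl 1 and Igl 3 shared the same 20-base motif and much of their surroundings, printed here with the motif in capitals. Within 1000 bp of the motifs a local alignment of 2013 positions was 87.0% identical, so that the sites stand in duplicated sequence 143581 bp apart, and reads that fit both copies could not be assigned from the deposited positions.
Igl 1 (chr16:19003219-19003278, plus strand): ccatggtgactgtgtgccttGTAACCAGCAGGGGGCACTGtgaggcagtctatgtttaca
Igl 3 (chr16:19146857-19146916, plus strand): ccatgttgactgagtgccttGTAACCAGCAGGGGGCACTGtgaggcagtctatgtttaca

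Beside Igll1, Igll1 1 (chr16:16854703-16855790), 5.51 kb from the gene, had 29 reads in ESC RAD21, 1 in EB RAD21, 8 in ESC IgG and 1 in EB IgG. This was the steepest change among the 31 sites, 16.4-fold fewer reads in EBs (2.71 to 669). Igll1 2 (chr16:16911979-16912672), in an intron of the phosphatase gene Ppm1f, had 26, 6, 3 and 2 reads, and its ratio of 0.409 (0.138 to 1.02) was just within counting error. Summed over the 5 sites of both stretches, EB RAD21 was at 0.347 of ESC RAD21 (0.221 to 0.527) and EB IgG at 0.637 of ESC IgG (0.227 to 1.57). The RAD21 interval includes the 0.436 of autosomal ESC-only sites.

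Beyond the V genes, each of the 2 long arrays ended with a site listed in ESCs only. Igh 10, between Ighv1-85 and Zfp386, had 21 reads in ESC RAD21, 11 in EB RAD21, 3 in ESC IgG and 4 in EB IgG, and Igk 1 (chr6:67460521-67461343) had 24, 10, 4 and 2. Their EB to ESC ratios were 0.928 (0.404 to 2.01) and 0.738 (0.315 to 1.60), with intervals that include 1. Igk 1 had a plus strand motif, which pointed into the V array, and Igh 10 had none.

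Summed EB RAD21 reads exceeded those of EB IgG at sites that were listed in ESCs only. Over the 23 such sites EB RAD21 had 135 and EB IgG 50 reads, a scaled ratio of 2.42 (1.74 to 3.41), and over all autosomal ESC-only sites the ratio was 3.04. At 11 of the 23 (47.8%, 26.8 to 69.4) EB RAD21 exceeded the 95th percentile of tiled windows away from sites, which was 5 reads, against 44.5% of all autosomal ESC-only sites. From ESCs to EBs the summed RAD21 reads of the 23 sites changed by 0.497 (0.408 to 0.603) and the IgG reads by 1.151 (0.791 to 1.66). The autosomal values, 0.436 and 0.959, lie within these intervals. At 4 of the 23 sites, Igh 6, Igh 8, Igk 12 and Igll1 1, scaled EB RAD21 was below EB IgG. Igh 8 and Igll1 1 had 1 read in each EB library, so there the order follows from the scaling alone. The share of such sites over the autosomes was not counted, so this count does not set the loci apart.

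Listed sites close to V genes were counted without a like share over other genes, so that the counts do not set V genes apart. A summit lay within 2 kb of 1 of the 218 V genes (0.459%, 0.0116 to 2.53), Gm16969, and within 5 kb of 7 (3.21%, 1.30 to 6.50), of which 3 were Igh, 3 Igk and 1 Igl genes. Among V families with at least 5 annotated genes, Ighv1 had 1 of 21 genes, Igkv12 1 of 7, Igkv5 1 of 5 and Igkv8 1 of 9 within 5 kb, and Ighv8, Igkv1, Igkv3, Igkv4 and Igkv6 had none. The ratio of RAD21 to IgG at the coding ends in ESCs was 0.905 (0.631 to 1.30) in Ighv1, the largest named Igh family and one without the downstream motif, and 0.696 (0.478 to 1.01) in Igkv4, the largest Igk family. Both intervals include 1.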

How the data were processed

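RAD21-GFP and IgG libraries of ESCs (day 0) and EBs (day 12) were grouped by the sample labels. The authors aligned 35 base reads to mm9 and deposited 1 position per read, and no 2 autosomal reads of a library shared position and strand. The aligner is not given in the sources used here. For ESCs and for EBs the authors ran the peak caller MACS on RAD21 with IgG as control. The deposited peak score is the log10 p-value multiplied by -10, and its lowest value was 50.01. The deposited summit height, a signal of piled-up reads that was not scaled between libraries, was not compared. The EB IgG file ends within a line on chromosome X, so only autosomes were used, and 7 broken lines of the ESC IgG file were skipped.

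Members were grouped into loci with gaps of at most 1 Mb. Reads were moved to the fragment centre (fragment length 204 bp in ESCs and 196 bp in EBs), counted within 250 bp of a summit, and scaled to autosomal reads. Sites of either list took the ESC summit where listed in ESCs and otherwise the EB summit, and an overlap of 1 bp made a site shared. Ratios of reads have exact conditional intervals, shares Clopper-Pearson intervals, densities Poisson intervals and medians order-statistic intervals. No test across conditions was possible with 1 library per group. Unlisted motif matches were at least 2 kb from a summit and 500 bp from each other. The analysis used Python 3.11.15, numpy 2.4.6, scipy 1.17.1 and Biopython 1.88, and the interval and motif steps were tested on simulated data. Sites were named as all those outside the V arrays and, within an array, the 5 of highest score per list and the 3 per direction with the largest ratio and at least 20 RAD21 reads. The members and lists were chosen with earlier results of these data known, and the grouping of sites by place, the motifs behind V genes and the reads at unlisted matches were examined after the values were seen. Sequences and genes were taken from the mm9 assembly and GENCODE vM1.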

Additional observations from a re-analysis of the deposited data

How the results depend on the processing

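No paired analysis was possible because there was 1 library per group. Of 65 alternatives to 15 results, 45 stayed within the interval of the reported value or, for counts, within a set fold of it. None turned a direction. The intervals are wide, and the median log2 ratios counted as within theirs ran from -1.08 to -0.21, against the reported -0.50. Joining the genes of chromosome 16 into 1 span raised the sites to 50 in ESCs and 18 in EBs, and a flank of 50 kb or none left 5 EB sites. A score of at least 100 left 7 ESC sites and 1 EB site, of which 42.9% and 100% were shared and 42.9% and 100% had a strict motif, and 66.9% of autosomal ESC sites of that score were shared, a value within the interval of the loci (9.90 to 81.6). It left 0 V genes near a site and 0.657 ESC and 0.164 EB sites per Mb. Motif shares rose to 85.7% in ESCs and 87.5% in EBs at the looser threshold, and to the same values at a threshold of 1e-05 in model sequences, an alternative chosen after seeing the data. A summit within 5 kb counted 3.21% of V genes as near a site. Reads counted within a narrower window of the summit gave a median RAD21 to IgG ratio of 6.59 in ESCs, against 4.59. Scaling to a median of 0 at shared autosomal sites moved all log2 ratios by 0.38, left 1 site at least 2-fold higher in EBs and gave 15 at least 2-fold lower, against 31.8% of all autosomal sites. Without chromosome 6 the median log2 ratio was -1.08 over 15 sites, also chosen after seeing the data. Its interval (-1.76 to 0.24) held the autosomal 0.03. So did those for reads within 500 bp (to 0.09), for reads not moved (to 0.10) and for scaling by the IgG reads of the chromosome (to 0.09). The autosomal 0.03 is that of the main setting and was not computed again for these. The lower median is therefore not shown to be apart from the autosomes under them. With a median of 0 at shared autosomal sites it was -0.88 (-1.51 to -0.42), against -0.35 over all autosomal sites, as all ratios moved alike. Depth limits single sites, most of which held under 30 reads in ESC RAD21.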
